A study of Drosophila melanogaster with 4 samples.

Results

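The nuclear genes that encode subunits of respiratory complex I were examined in larval fat bodies of Drosophila melanogaster. They were chosen from a fixed list of 34 symbols, and all 34 had an entry among the 13990 distinct gene symbols of the deposited tables. Most are listed there under older symbols or CG numbers. CG13240 (ND-B17) is listed as l(2)35Di and was matched through its synonyms. Current names are used below. Their identity as homologues of the human NDUF subunits was checked against RefSeq synonyms. RNA came from the fat body, which stores and mobilizes nutrients in the larva, of yw larvae of the third instar, 110 h after egg laying. In the ND-75-i group, dMef2-Gal4, a muscle driver, expressed an RNAi construct against ND-75 (genotype dMef2-Gal4/UAS-ND-75-RNAi). The Con larvae carried dMef2-Gal4/UAS-white-RNAi, which targets the gene of a transporter of eye pigments. There were 2 samples per group, each pooling 10 fat bodies, and both groups carried the driver and an RNAi construct. The comparison asks how complex I genes are expressed in the fat body when complex I is targeted in muscle. No sample measures the knockdown in muscle itself.

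Complex I, NADH:ubiquinone oxidoreductase, passes electrons from NADH to ubiquinone and pumps protons across the inner mitochondrial membrane. Its hydrophilic matrix arm holds the NADH-binding N module and the ubiquinone-reducing Q module, and its membrane arm holds the proton pumps. The catalytic core subunits are conserved from bacteria: those of the matrix arm are encoded in the nucleus, and those of the membrane arm by mitochondrial DNA. Accessory subunits, all nuclear, surround the core and serve in assembly and stability. The list holds 7 core subunits, all of the matrix arm, and 27 accessory subunits. No gene of the mitochondrial chromosome is in the tables used, so the mitochondrially encoded core was not analysed here.

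Values are FPKM, the fragments found for each kilobase of transcript scaled by library size, so levels of different genes are per length. Where a group has a pair of values, replicate 1 stands before replicate 2. Changes are ND-75-i minus Con on the log2(FPKM + 1) scale. The test was limma over all 10024 genes tested with Benjamini-Hochberg adjustment, and "rose" means an adjusted p below 0.05. Summed FPKM were 957235 and 942561 in ND-75-i and 861027 and 849472 in Con. The 10 highest genes took 18.8% and 20.1% of that sum in ND-75-i and 35.5% and 33.4% in Con. The median gene was 0.25 higher in ND-75-i, a shift that median-ratio rescaling of the libraries brought to -0.01. Of 8 fat body markers, 5 had a status of OK in all libraries, and these summed to 21975 and 31659 FPKM in ND-75-i and to 80664 and 85490 FPKM in Con. Among them the storage protein gene Lsp1alpha fell, with 2893 and 4506 FPKM in ND-75-i and 28004 and 25267 FPKM in Con (log2 change -2.88, limma adjusted p = 0.0220). Fbp2 stood at 6380 and 16337 FPKM in ND-75-i and at 29136 and 33073 FPKM in Con (adjusted p = 0.116). The other 3 markers lacked that status. One of them, Lsp2, was at 16637 and 25411 FPKM in ND-75-i and is listed at 0 in both Con libraries with a status of too much data, a failed estimate, so the printed sums hold only part of the list. The libraries' summed FPKM and the shares of their 10 highest genes likewise count Lsp2 in ND-75-i but at 0 in Con. Lsp2, Fbp1, apolpp and Adh are named after their values were seen. Fbp1 stood at 22.5 and 393 FPKM in ND-75-i and at 14971 and 17897 FPKM in Con (log2 difference -7.41, adjusted p = 0.0595). The lipoprotein gene apolpp stood at 2940 and 3098 FPKM in ND-75-i and at 2688 and 2237 FPKM in Con (adjusted p = 0.193). Adh stood at 9740 and 7325 FPKM in ND-75-i and at 5865 and 7016 FPKM in Con (log2 difference 0.40, limma adjusted p = 0.234). Of 14 muscle markers only Act88F, a flight muscle actin, was listed at 0 in all 4 libraries. The most abundant, Act57B, stood at 21.4 and 16.9 FPKM in ND-75-i and at 6.62 and 12.2 FPKM in Con (limma adjusted p = 0.119). Mlc1 came next, with 7.77 and 4.18 FPKM in ND-75-i and 3.98 and 3.22 FPKM in Con (limma adjusted p = 0.253). Summed FPKM of the 14 muscle markers was 70.0 and 51.6 in ND-75-i and 34.9 and 47.1 in Con. limma called 0 of the 12 muscle markers that could be tested, higher or lower. Testis markers summed to 118 and 24.6 FPKM in ND-75-i and to 192 and 133 FPKM in Con. Hemocyte markers summed to 43.6 and 62.8 FPKM in ND-75-i and to 76.6 and 210.1 FPKM in Con. Midgut markers summed to 555 and 1478 FPKM in ND-75-i and to 246 and 1953 FPKM in Con. Most of each sum was Jon65Aiv, at 424 and 1317 FPKM in ND-75-i and at 239 and 1819 FPKM in Con (limma adjusted p = 0.916). Of 4 midgut markers tested 1 was called higher, against 7.76% of all genes tested. It was Jon99Ciii, at 82.3 and 104 FPKM in ND-75-i and at 0.108 and 0.106 FPKM in Con (log2 change 6.40, limma adjusted p = 0.0109). The part of these markers in the changes below was not tested. A shift in the cells of a sample and a shift in RNA per cell cannot be told apart in such tissue samples.

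Messenger RNA of nearly every complex I subunit was more abundant in the ND-75-i fat bodies. Of the 33 subunits that passed the filter on low values, 31 rose and 0 fell. Among all genes tested 7.76% were called higher and 1.09% lower, 8.85% in all. An unadjusted p below 0.05 was reached by 32 subunits, all higher, against 37.1% of all genes in either direction. The median change of the 33 was 1.32, or 2.50-fold, against 0.25 for all genes tested, and single subunits lay between 0.46 and 1.78. The change was at least 1 in 28 of 33, against 9.75% of all genes tested. In every subunit both ND-75-i libraries stood above both Con libraries, as they did for 53.7% of all genes tested, with the reverse in 21.7%. The subunits' summed FPKM was 7093 and 6163 in ND-75-i and 2658 and 2697 in Con. As a share of all listed FPKM this is 0.741% and 0.654% in ND-75-i and 0.309% and 0.318% in Con. That total counts Lsp2 in ND-75-i but at 0 in Con, where its estimate failed. The change of the median subunit was 1.03 after median-ratio rescaling, with 28 subunits called higher. limma called 0 subunits in each of the 4 fits that left out a library, where 32 or 33 had a higher level at an unadjusted p below 0.05, as did 2367 to 3336 of all genes in either direction.

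**Figure D1:**
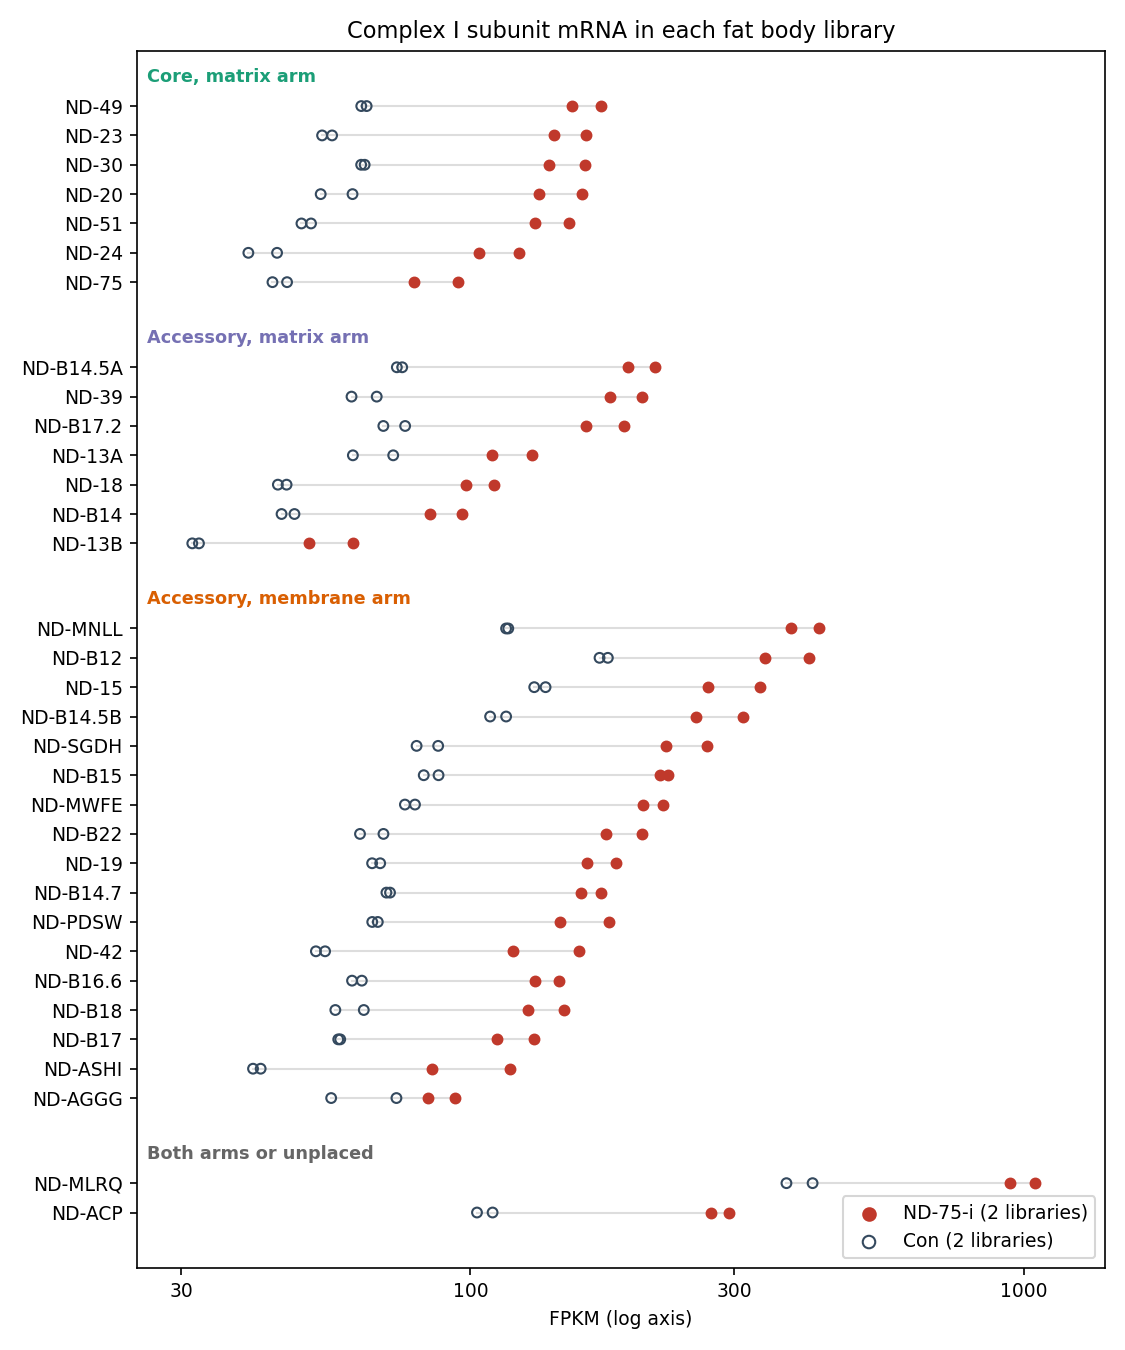
FPKM of each of the 33 subunits above the filter on a log axis, grouped by class and arm of the complex and ordered by the ND-75-i mean; filled points are the 2 ND-75-i libraries and open points the 2 Con libraries. In every row both filled points lie to the right of both open points, and ND-AGGG has the narrowest gap.

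The precision behind these values can be read from the bounds deposited with each FPKM. For the 33 subunits the upper bound lay a median of 6.40% above the value in ND-75-i and 10.3% in Con. If the bounds reflect counting alone, each subunit rests on 278 to 4388 fragments in the ND-75-i libraries and on 167 to 1371 in the Con libraries. For 32 of the 33 subunits the lower bounds in ND-75-i exceeded the upper bounds in Con, as for 25.9% of all genes tested. The exception was ND-AGGG. The SD between replicates was a median of 10.5% of the mean in ND-75-i and 2.96% in Con. ND-75-i replicate 1 was higher than ND-75-i replicate 2 in all 33 subunits, by a median of 0.21 on the log2 scale. Con replicate 1 was higher than Con replicate 2 in 16 of 33, with a median difference of -0.01. The lowest of the 4 library-to-library medians was 1.12, between ND-75-i replicate 2 and Con replicate 2. The highest was 1.42, between ND-75-i replicate 1 and Con replicate 1.

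All 7 core subunits rose, with a median change of 1.33. In the N module, ND-51, the flavoprotein that binds NADH, stood at 151 and 131 FPKM in ND-75-i and at 51.5 and 49.5 FPKM in Con (log2 change 1.46, SE 0.107, adjusted p = 0.0185). Its iron-sulphur partner ND-24 stood at 122 and 104 FPKM in ND-75-i and at 39.7 and 44.7 FPKM in Con (1.40, SE 0.129, adjusted p = 0.0219). In both genes the groups were far apart relative to the replicates.

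ND-75, the largest core subunit, carries iron-sulphur clusters in the N module and is the gene targeted by RNAi. It is listed as ND75, on chromosome X from 8142684 to 8145699 in the tables' coordinates. In the fat body it stood at 94.8 and 79.0 FPKM in ND-75-i and at 46.6 and 43.9 FPKM in Con. It was thus higher in the group in which it is targeted in muscle (log2 change 0.92, SE 0.125, adjusted p = 0.0353). Reads from the gene and any from the RNAi construct, which Con lacks, cannot be told apart in the tables, and this holds for each ND-75 value given here. Its change was the smallest among the 7 core subunits, which otherwise ranged from 1.21 to 1.46. Relative to the median of the other 6 core subunits in the same library, ND-75 stood at 0.592 and 0.582 in ND-75-i and at 0.849 and 0.762 in Con, and these ratios did not overlap. After median-ratio rescaling the log2 change of ND-75 was 0.63 and did not pass (limma adjusted p = 0.0795). Quantile normalization gave 0.65 (adjusted p = 0.0520).

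The 4 core subunits of the Q module changed by similar amounts. ND-49, which with ND-20 lines the ubiquinone-binding site, stood at 172 and 153 FPKM in ND-75-i and at 63.5 and 64.9 FPKM in Con (log2 change 1.32, SE 0.0973). ND-20, which holds the last iron-sulphur cluster of the chain, stood at 159 and 133 FPKM in ND-75-i and at 53.6 and 61.2 FPKM in Con (1.33, SE 0.136). ND-23, with the iron-sulphur clusters before it, stood at 162 and 141 FPKM in ND-75-i and at 56.2 and 54.0 FPKM in Con (1.44, SE 0.105). Together with ND-30 (1.21, SE 0.108), these form the path of electrons to ubiquinone. The limma adjusted p of the 4 lay between 0.0185 and 0.0235.

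The accessory subunits of the matrix arm varied more among themselves than the core. Of 8 listed, 7 could be tested and 6 rose, with a median of 1.17 and a range from 0.80 to 1.56. ND-39, the homologue of the nucleotide-binding human subunit NDUFA9, led them with 204 and 179 FPKM in ND-75-i and 67.7 and 61.0 FPKM in Con (log2 change 1.56, SE 0.114, adjusted p = 0.0185). ND-B14.5A followed with 216 and 192 FPKM in ND-75-i and 75.3 and 73.6 FPKM in Con (1.44). ND-B17.2 rose by 1.25 and ND-18, whose human homologue NDUFS4 is needed for a stable N module, by 1.17. The remaining tested members of the class changed by less than any other matrix arm subunit apart from ND-75. ND-B14, a subunit that binds the acyl carrier protein, stood at 96.4 and 84.7 FPKM in ND-75-i and at 45.6 and 48.1 FPKM in Con (0.93, adjusted p = 0.0268). ND-13B had the lowest level of all tested subunits in every library, with 61.4 and 51.1 FPKM in ND-75-i and 31.4 and 32.3 FPKM in Con (0.80, adjusted p = 0.0434). With median-ratio rescaling it did not pass (limma adjusted p = 0.0852). ND-13A, homologous to the zinc-binding human subunit NDUFS6, stood at 129 and 109 FPKM in ND-75-i and at 72.5 and 61.3 FPKM in Con. Its difference of 0.82 (SE 0.143) fell just short of the threshold (adjusted p = 0.0507).

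The eighth matrix arm accessory gene, ND-B8, was barely detected. It is listed as CG15434, on chromosome 2L from 4454664 to 4455207, with 0.618 FPKM in ND-75-i replicate 1 and 0 in replicate 2, and with 0.348 and 0.342 FPKM in Con. The value of Con replicate 1 corresponds to about 1 fragment by its bounds. All 4 entries have a status of OK, and every other subunit on the list was above 31 FPKM in each library. No difference in ND-B8 was detectable at this depth, and no fold is given.

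In the membrane arm 16 of the 17 accessory subunits rose, with a median of 1.27. Nearest the matrix arm all 7 subunits rose, within a narrow range from 1.13 to 1.45. ND-MWFE, homologous to NDUFA1 of the first steps of human membrane arm assembly, stood at 223 and 205 FPKM in ND-75-i and at 76.1 and 79.4 FPKM in Con (log2 change 1.45, SE 0.0881, adjusted p = 0.0182). ND-42, the NDUFA10 homologue, stood at 157 and 119.5 FPKM in ND-75-i and at 52.6 and 54.6 FPKM in Con (1.34). Its 2 ND-75-i libraries were further apart than those of most subunits. ND-B14.5B stood at 310.4 and 256 FPKM in ND-75-i and at 109 and 116 FPKM in Con (1.32). ND-B14.7 and ND-B16.6, homologues of NDUFA11 and NDUFA13, rose by 1.204 and 1.13.

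The 4 subunits with twin cysteine motifs, imported into the intermembrane space by oxidative folding, changed by much the same amount. ND-19, ND-15, ND-B18 and ND-PDSW rose by 1.34, 1.16, 1.16 and 1.24. By its bounds ND-PDSW had 591 and 828 implied fragments in ND-75-i, for 178 and 145 FPKM. Counting alone does not give that order, so its voom values rest on uneven input. Voom weights from the implied fragments were an alternative chosen after seeing the data. They put the log2 change of ND-PDSW at 1.64, which did not pass (limma adjusted p = 0.0553). With median-ratio factors added it was 1.40 (adjusted p = 0.0985), and the log2 change of ND-15 was 0.80 and did not pass either (adjusted p = 0.0654). ND-15 was the most abundant of them, with 334 and 269 FPKM in ND-75-i and 130.4 and 137 FPKM in Con. The acyl carrier ND-ACP, which sits on both arms and also serves mitochondrial fatty acid synthesis, stood at 293 and 272 FPKM in ND-75-i and at 103 and 109.7 FPKM in Con (1.40, SE 0.0899, adjusted p = 0.0182). Its LYR-motif partner on the membrane arm, ND-B22, stood at 204 and 176 FPKM in ND-75-i and at 69.6 and 63.2 FPKM in Con (1.501). Its partner on the matrix arm, ND-B14, was the lower of the pair in both level and change.

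The distal membrane arm held both the largest and the smallest change. ND-MNLL, homologous to the small single-pass membrane protein NDUFB1 and listed as CG18624 on chromosome X from 7787086 to 7787829, stood at 426 and 379 FPKM in ND-75-i and at 116 and 117 FPKM in Con. Its log2 change was 1.78 (SE 0.0951, adjusted p = 0.0182). ND-SGDH followed with 267 and 226 FPKM in ND-75-i and 87.4 and 79.9 FPKM in Con (1.54, SE 0.122). ND-B15 rose by 1.39, ND-ASHI by 1.27, ND-B12 by 1.10 and ND-B17 by 1.04. The ND-ASHI call, with 118 and 85.3 FPKM in ND-75-i and 40.5 and 41.8 FPKM in Con, did not hold with median-ratio rescaling (limma adjusted p = 0.0588). ND-AGGG, the NDUFB2 homologue, stood at 93.7 and 84.0 FPKM in ND-75-i and at 73.5 and 56.0 FPKM in Con. Its difference of 0.46 (SE 0.167, adjusted p = 0.137) was not beyond the replicate error, and rescaling made it 0.17. ND-AGGG is the only subunit whose entry lies on a heterochromatic contig, 3LHet, from 459586 to 460457.

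ND-MLRQ, listed as CG32230, is homologous to human NDUFA4, which was first assigned to complex I and is now placed in complex IV in mammals. It had the highest level of the list in every library, with 1046 and 942 FPKM in ND-75-i and 372 and 415 FPKM in Con. It rose by 1.33 (SE 0.111, adjusted p = 0.0193), close to the median subunit. Without it the spread of levels among subunits, as a coefficient of variation, was 46.1% and 46.6% in ND-75-i and 40.3% and 42.5% in Con.

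**Figure D2:**
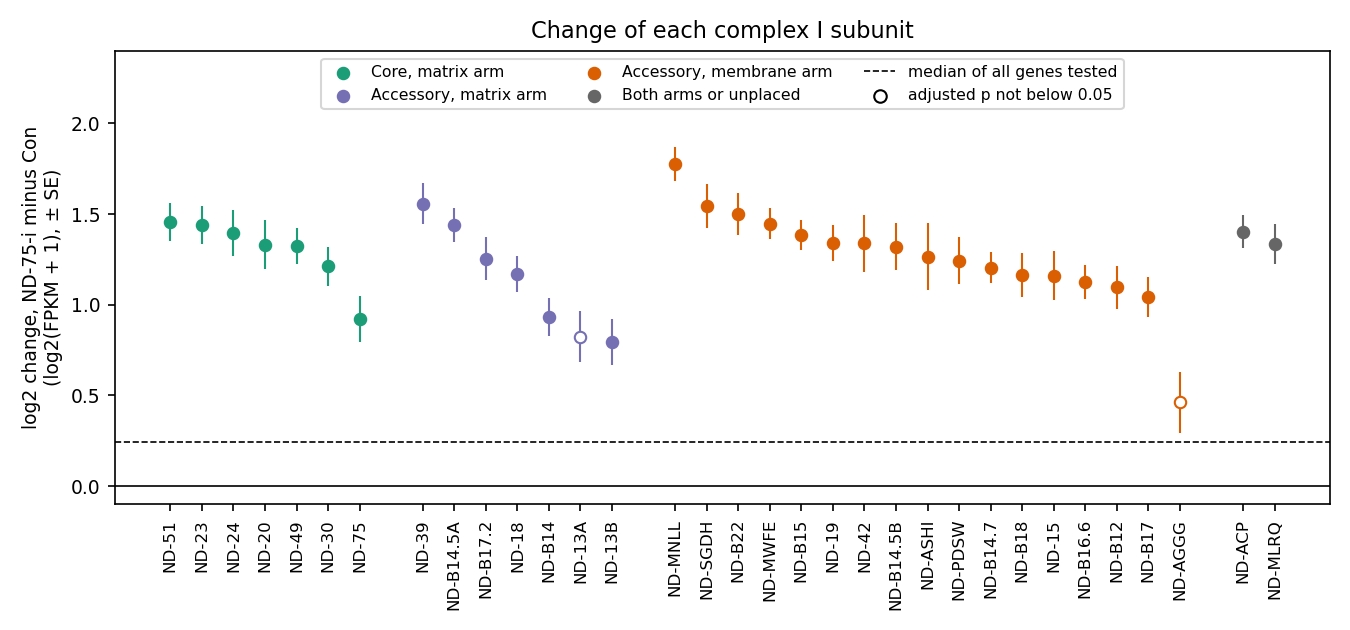
Log2 change of each of the 33 subunits, ND-75-i minus Con, with its standard error from limma over 2 libraries per group; colours give class and arm, open points did not reach an adjusted p below 0.05, and the dashed line is the median of all genes tested. Points range from 0.46 for ND-AGGG to 1.78 for ND-MNLL, and the classes overlap.

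The classes differed little from one another. The median change was 1.33 in the 7 core subunits and 1.26 in the 26 accessory subunits tested, a difference of 0.07. The spread of the same difference between replicate libraries was 0.05 (SD). The membrane arm median was 0.02 below the matrix arm median, with a replicate SD of 0.09. Within the matrix arm, accessory subunits had a median of 1.17. The N module had a median of 1.21 over 6 subunits and the Q module 1.33 over 8. In the membrane arm the proximal subunits had a median of 1.32 and the distal subunits 1.25. Changes scattered more in the distal part (SD 0.36 over 10 subunits) than in the proximal part (SD 0.12 over 7). These medians were not tested against each other.

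The median level of the tested accessory subunits was above that of the core in all libraries. This did not hold for matrix arm accessory subunits alone. Their median was 129 and 109 FPKM in ND-75-i, below the core median of 159 and 133 FPKM. In Con it was 67.7 and 61.0 FPKM, above the core median of 53.6 and 54.0 FPKM. The accessory median was 1.17 and 1.22 times the core median in ND-75-i and 1.32 and 1.23 times in Con. Most subunits lay close together: 29 of 33 were within 2-fold of the library's median subunit in each ND-75-i library, and 30 of 33 in each Con library. The median subunit stood at 172 and 145 FPKM in ND-75-i and at 68.0 and 63.6 FPKM in Con. It was 17.4 and 16.0 times the median gene in ND-75-i and 8.68 and 7.73 times in Con. Levels ran from the 86.4th to the 98.4th percentile of genes tested in ND-75-i and from the 81.7th to the 97.5th in Con.

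Dividing each subunit by the median subunit of its own library removes any scale shared by the library. This describes mRNA levels among the subunits, not the make-up of the complex. The order was largely kept, with a Spearman rho of 0.90 between group means over 33 subunits measured in the same libraries. Of the 33, 11 stood higher relative to the median subunit in both ND-75-i libraries than in either Con library, and 8 stood lower. Among all genes tested 5.97% were higher and 79.8% lower by this measure, since few genes changed as much as the median subunit. Those shares are therefore no yardstick for subunits centred on their own median. On FPKM itself the groups did not overlap in 53.7% of all genes tested (higher) and in 21.7% (lower). A lack of overlap is thus common with 2 libraries per group. ND-24 counted as higher with 0.710 and 0.715 in ND-75-i against 0.584 and 0.703 in Con. ND-MNLL stood at 2.47 and 2.61 times the median subunit in ND-75-i and at 1.71 and 1.84 times in Con. It thereby passed ND-15 and ND-B12 and took second place after ND-MLRQ. ND-AGGG stood at 0.545 and 0.580 in ND-75-i and at 1.08 and 0.880 in Con, and ranked 31 of 34 in ND-75-i against 17 of 34 in Con. ND-13A stood at 0.752 and 0.754 in ND-75-i and at 1.07 and 0.963 in Con. ND-75 stood at 0.551 and 0.545 in ND-75-i and at 0.686 and 0.690 in Con. In ND-MNLL, ND-AGGG, ND-13A and ND-75 the replicates of each group were closer to each other than to the other group. This did not hold for ND-24, whose Con replicate 2, at 0.703, lay nearer to both ND-75-i libraries than to Con replicate 1. The other subunits that were lower by this measure were ND-13B, ND-B14, ND-B12, ND-B17 and ND-18. ND-39, ND-SGDH and ND-B22 were the next highest after ND-MNLL, at 1.24, 1.22 and 1.19 times their Con mean.

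**Figure D3:**
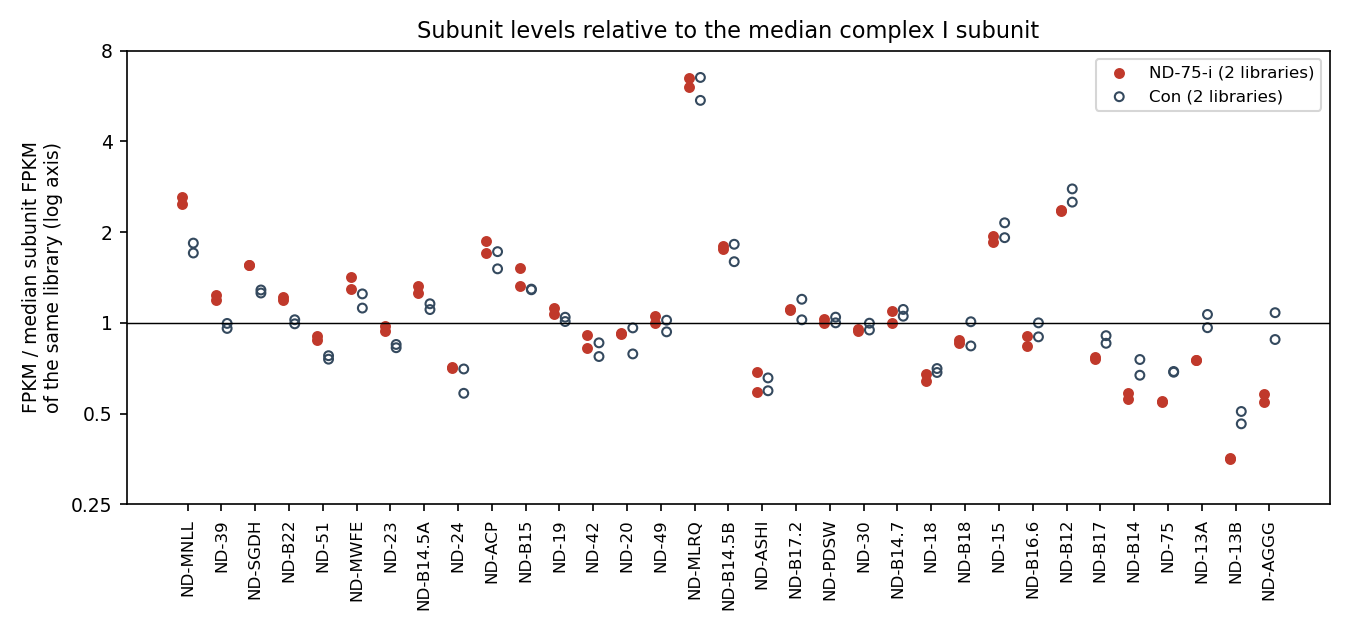
FPKM of each subunit divided by the median subunit of the same library, on a log axis, ordered by the ratio of group means; filled points are the 2 ND-75-i libraries and open points the 2 Con libraries. ND-MNLL, at the left, stood at 2.47 and 2.61 in ND-75-i against 1.71 and 1.84 in Con, and ND-AGGG, at the right, at 0.545 and 0.580 against 1.08 and 0.880.

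The size of the change differed little between chromosome arms. The tested subunits lie on X (9), 2L (8), 2R (6), 3L (6), 3R (2), 4 (1) and 3LHet (1). Median changes on the arms with at least 6 subunits lay between 1.25 and 1.37. The 24 subunits with 1 start site in the tables had a median of 1.32 and the 9 with more had a median of 1.27. The 13 subunits with a coding length under 400 bases had a median change of 1.16, and the 20 longer ones had a median of 1.33. Coding lengths run from 168 bases in ND-MNLL to 2193 bases in ND-75. Across the 33 subunits the change had a Spearman rho of 0.20 with coding length, whereas the mean FPKM in Con had a rho of -0.59. Shorter subunits thus had higher FPKM, a value that is itself divided by length. Subunits are not independent replicates, since all were measured in the same 4 libraries.

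Of 3 nuclear subunits that were not on the list, 2 rose, against 7.76% called higher among all genes tested. NP15.6, the NDUFB11 homologue of the membrane arm, stood at 242 and 200.9 FPKM in ND-75-i and at 94.9 and 97.8 FPKM in Con (log2 change 1.19, SE 0.122, adjusted p = 0.0235). NdufA3 stood at 116 and 104 FPKM in ND-75-i and at 52.5 and 58.5 FPKM in Con (0.97, adjusted p = 0.0260). NdufV3 stood at 136 and 113 FPKM in ND-75-i and at 69.6 and 76.5 FPKM in Con (0.76, adjusted p = 0.0507). All 3 had levels in the range of the listed subunits.

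Assembly factors build the complex but are not part of it. Of 12, all tested, 2 rose and 0 fell, against 7.76% called higher and 1.09% lower among all genes tested. Their median change was 0.56, against 0.25 for all genes tested. CG3270, the homologue of FOXRED1 in human assembly, stood at 60.4 and 69.7 FPKM in ND-75-i and at 29.5 and 29.5 FPKM in Con (log2 change 1.11, SE 0.109, adjusted p = 0.0224). 140up, the TIMMDC1 homologue, stood at 15.62 and 14.47 FPKM in ND-75-i and at 7.81 and 8.69 FPKM in Con (0.79, adjusted p = 0.0461). Neither call held after median-ratio rescaling, under which limma called 0 assembly factors (adjusted p = 0.0678 and 0.0848). The rescaled median of the 12 was 0.30, against -0.01 for all genes tested. CIA30, the NDUFAF1 homologue, stood at 15.3 and 14.2 FPKM in ND-75-i and at 15.5 and 14.9 FPKM in Con. Its difference of -0.04 had a 95% interval from -0.36 to 0.27. Nubpl, which delivers iron-sulphur clusters, stood at 73.1 and 72.1 FPKM in ND-75-i and at 68.1 and 64.6 FPKM in Con (0.13, interval -0.10 to 0.36). After rescaling Nubpl and CG11722 lay below 0, at -0.16 and -0.06. ECSIT, sicily, CG17726 and Egm had differences of 0.76, 0.68, 0.61 and 0.50 that did not pass (limma adjusted p = 0.0558, 0.0563, 0.0762 and 0.0999). CG13392, CG5569, CG8067 and CG11722 had differences of 0.73, 0.52, 0.39 and 0.22 that did not pass either (adjusted p = 0.111, 0.0852, 0.116 and 0.396).

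The paralogs of core subunits had low FPKM and lay on the other side of 0. ND-49L stood at 2.77 and 0.387 FPKM in ND-75-i and at 5.84 and 4.42 FPKM in Con, and ND-24L at 1.14 and 0.342 FPKM in ND-75-i and at 5.36 and 2.86 FPKM in Con. limma called 0 of the 5 core paralogs tested, with adjusted p between 0.0860 and 0.225 and a median difference of -1.34. The accessory paralog ND-B14.5AL stood at 2.84 and 0.653 FPKM in ND-75-i and at 6.28 and 2.10 FPKM in Con (adjusted p = 0.325). The summed testis markers were likewise lowest in ND-75-i replicate 2, at 24.6 FPKM, against 118 FPKM in ND-75-i replicate 1. Their part in the paralog values was not tested.

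**Figure D4:**
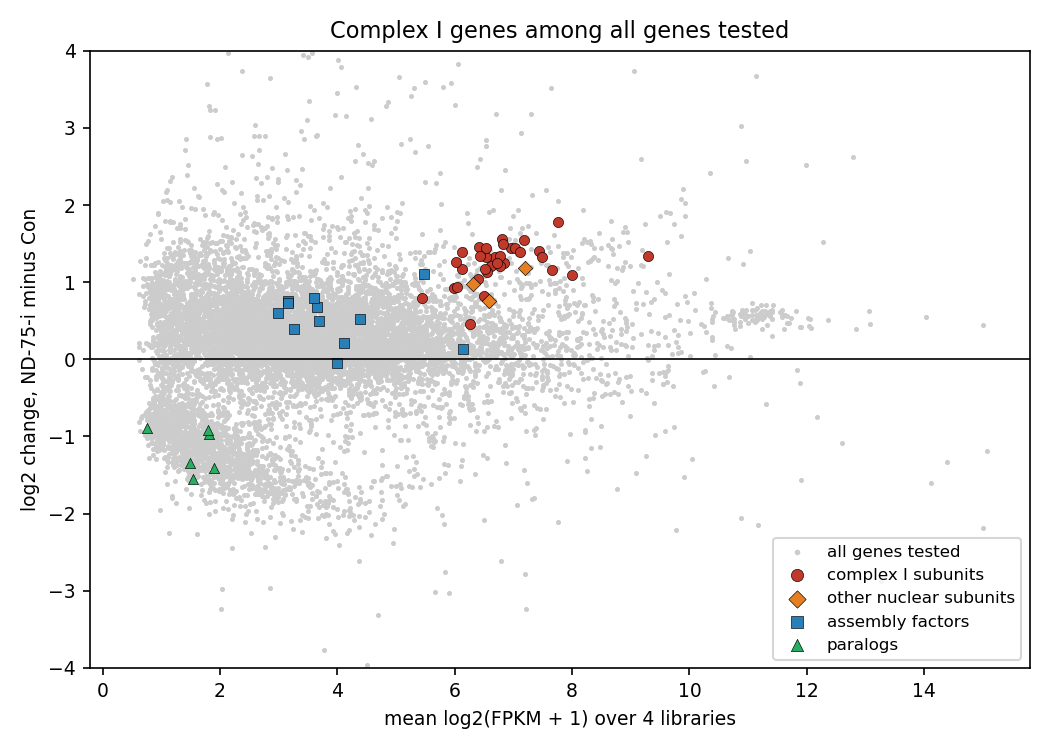
Log2 change, ND-75-i minus Con, against mean log2(FPKM + 1) over the 4 libraries for all genes tested (grey), complex I subunits (circles), other nuclear subunits (diamonds), assembly factors (squares) and paralogs (triangles); 47 genes with changes beyond 4 in either direction are not drawn. Subunits lie between 0.46 and 1.78 at high levels, assembly factors around a median of 0.56, and paralogs below 0 at low levels.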

How the data were processed

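The authors deposited 1 table per library with an FPKM, its bounds and a status for each gene, per the file headers. The submitters' processing notes name Bowtie 0.12.2. Not given in the sources used here: genome build, annotation, use of strand and the program behind the FPKM. Tabled coordinates are printed with 1 added to each start. No sequence is shown, because no sequence table or genome was at hand.

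The 13882 symbols whose status was OK in every library (108 were left out) were tested if 2 or more libraries reached 1 FPKM. Where a symbol had any line with a status of OK in every library, its lines without that status were dropped. The remaining lines sharing a symbol were summed. The model, fitted to log2(FPKM + 1) in R 4.3.3 with limma 3.58.1, had group as its sole term and an intensity trend. Tests were two-sided, with Benjamini-Hochberg adjustment over 10024 genes and a threshold of 0.05. FPKM are not counts, so no count test was the main result. The added pseudocount makes the changes of low genes look smaller. The fragments implied by a bound were taken as the square of FPKM over SD, with bounds read as 2 SD from the FPKM. In genes that have a single start site and fewer than 200 such fragments, 81.2% to 82.3% of the numbers were whole to within 0.05. They sum to 11881000 and 10646000 in ND-75-i and to 9576000 and 9804000 in Con. Read this way, such intervals cover counting error only. The 591 and 828 implied fragments of ND-PDSW in ND-75-i, for 178 and 145 FPKM, depart from that reading. Whether replicates are separate crosses is not stated in the labels, so p-values reflect only how these samples vary, possibly for technical reasons. The fit was also run on simulated data with independent normal errors and no shift shared by a library. Shifts of that kind were therefore not covered by that run. Tables and figures used matplotlib 3.10.9, pandas 2.3.3 and NumPy 2.4.6 under Python 3.11.15. Coding lengths came from a BDGP6 annotation used for names and lengths only.

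The subunits and lists were chosen with earlier results of these data known. All subunits, listed assembly factors, paralogs and other subunits could be named, and the 2 most abundant genes of each marker list; any other marker gene was chosen after its values were seen. 3 assembly factors (CG13392, Egm, 140up), NdufA3, NdufV3 and ND-B14.5AL were added from RefSeq synonyms after the tables were opened, and the CG number of sicily was corrected then. Results were recomputed with quantile normalization, median-ratio rescaling, pseudocounts of 0.1 and 5, a minimum mean of 5 FPKM, no low filter, all statuses, a replicate block and without each library. Voom weights on implied fragments, with or without median-ratio factors, were chosen after seeing the data.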

Additional observations from a re-analysis of the deposited data

How the results depend on the processing

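Every tested subunit kept a change above 0 under all 14 alternatives. Subunits called higher numbered 23 to 32 of 33 while all 4 libraries were in, lowest with voom weights and median-ratio factors, where ND-75, ND-13B, ND-B14, ND-15, ND-B12, ND-B17, ND-ASHI and ND-PDSW lost their call, and 0 in each fit that left out 1 library, a fit in which the lone sample is assumed to vary like the other group. The number of genes called higher was 778, and 347 after median-ratio rescaling, 501 with voom weights, 245 with voom weights and median-ratio factors, and 0 to 0 with 1 library left out, where 2367 to 3336 genes had an unadjusted limma p below 0.05. The number of genes called lower was 109, and 373 after quantile normalization, 198 with the replicate block and 0 to 0 with 1 library left out. After median-ratio rescaling, quantile normalization and voom weights with median-ratio factors, the median changes were 1.03, 0.94 and 1.01 for all subunits, 1.04, 1.05 and 1.05 for core, 0.97, 0.91 and 0.99 for accessory, 1.0, 0.97 and 1.03 for matrix arm and 0.98, 0.94 and 0.99 for membrane arm subunits. With 1 library left out the medians ranged from 1.14 to 1.41 for all subunits, 1.24 to 1.46 for core, 1.14 to 1.40 for accessory, 1.17 to 1.39 for matrix arm and 1.14 to 1.41 for membrane arm subunits. Core minus accessory was 0.07, and 0.14 after quantile normalization. Assembly factors called higher numbered 2, and 0 after median-ratio rescaling and with voom weights and median-ratio factors, 1 after quantile normalization, with no low filter, with the replicate block and with voom weights, 4 at a mean of at least 5 FPKM and 0 to 0 with 1 library left out. The cause of these shifts was not tested. In the fits that left one out, the number of samples and the libraries used changed together. Deviations of same-numbered samples from their group means correlated at 0.36 across genes, but the labels give no pairing and there are 2 pairs, so the numbers are not taken as pairs; with the replicate block 32 subunits were called higher.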
